A study of Mus musculus with 14 samples.

Results

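The comparison described here sets wild-type mouse myeloid cells against wild-type myeloid progenitors, 3 single-colour Agilent arrays a side. The 6 arrays were chosen by cell type and genotype label from the 14 arrays of the series. The series studies Rheb1 and mTORC1 in macrophages. Its other arrays are 3 Rheb1-/- progenitor and 3 Rheb1-/- myeloid cell samples, from mice in which Vav1-cre deletes the Rheb1fl/fl alleles in blood cells, and 1 hematopoietic stem cell sample of each genotype. Strain, age, organ, sort markers and the number of mice are not given in the sources used here, and no label ties a sample to an animal. The p-values therefore measure the spread among these samples, which may be technical. Each value below is the log2 processed signal of a probe minus the array's 75th percentile, so 0 lies at that percentile, and a value is compared between samples and not between genes.

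Myeloid progenitors of the bone marrow divide and make the proteins of the first neutrophil granules, above all myeloperoxidase and the serine proteases. As their descendants mature into neutrophils, monocytes and macrophages, they leave the cell cycle, fill later granules, and gain the receptors for chemoattractants, complement and antibody with which they find and ingest microbes. The transcription factors C/EBP, PU.1, GFI1 and IRF8 direct these steps, and MYC, which drives ribosome production and growth, gives way to its antagonists of the MXD family.

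The array named 27343 genes, and 17723 of them were tested, those whose signal stood well above background throughout at least 1 of the 4 groups of 3. Replicates correlated at 0.988 to 0.991 across genes and arrays of different wild-type groups at 0.866 to 0.894. No spot was saturated. The 3 wild-type myeloid cell arrays lay on 1 slide, wild-type progenitor array 1 on another slide scanned on another day, and progenitor arrays 2 and 3 on another again, so cell type and slide cannot be told apart in wild type. The wild-type difference does not use the Rheb1-/- arrays, although these share its estimate of spread, choice of probe and gene filter. The Rheb1-/- arrays gave the same contrast in other samples. On 1 slide they also gave it within the slide, as 3 myeloid cell arrays against 1 progenitor array with no test. Both values stand beside the results. Rheb itself, whose single probe may or may not lie in the deleted part, read 3.99, 4.08 and 3.82 on the wild-type and 3.31, 2.69 and 2.65 on the Rheb1-/- progenitor arrays, and 3.61, 3.00 and 2.86 on the wild-type and 2.23, 2.16 and 2.43 on the Rheb1-/- myeloid cell arrays. Within each cell type every Rheb1-/- array was lower than every wild-type array. In wild type Rheb fell 1.75-fold from progenitors to myeloid cells (limma adjusted p = 0.00648). The call ended in an additive model of cell type, genotype and slide over all 14 arrays (-0.42, limma adjusted p = 0.202). That model, the additive slide model below, fits a single cell type difference to both genotypes and includes the stem cell arrays. Its values are therefore not the wild-type difference alone, and the parts of slide and genotype in them were not separated.

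The defining genes followed the labels. Cd34, the sialomucin of stem and progenitor cells, and the stem cell factor receptor Kit were lower on each myeloid cell array than on every progenitor array, whereas the integrin Itgam (CD11b) and the granulocyte colony-stimulating factor receptor Csf3r were higher. Genes of mature neutrophils such as Ltf and S100a8 were also well above background on all 3 progenitor arrays. Markers of red cells, B cells, T cells and dendritic cells were higher in the myeloid cells as well, as described further on, and their part in the results that follow was not tested. With bulk RNA, fewer cells of a type and less RNA per cell cannot be told apart.

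Most measured genes differed between the cell types. Limma called 13798 of 17723 genes at an adjusted p under 0.05 (77.9%), 6999 higher in myeloid cells (39.5%) and 6799 lower (38.4%), and 4544 (25.6%) rose and 3916 (22.1%) fell by at least 2-fold. At 8-fold the balance was uneven, with 929 genes higher and 339 lower. The samples of the groups did not overlap in 14173 genes (80.0%), 7252 higher (40.9%) and 6921 lower (39.1%). These shares are the background against which each count of a gene list is to be read. The median difference over all genes was 0.07 on the log2 scale. Scaling each array to its median in place of its 75th percentile moved that median by -0.29 and the calls to 5549 higher and 8024 lower, so small differences depend on the scaling. By any of their probes, 775 genes were above background on all 3 myeloid cell arrays and on no progenitor array, and 201 the reverse.

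**Figure D1:**
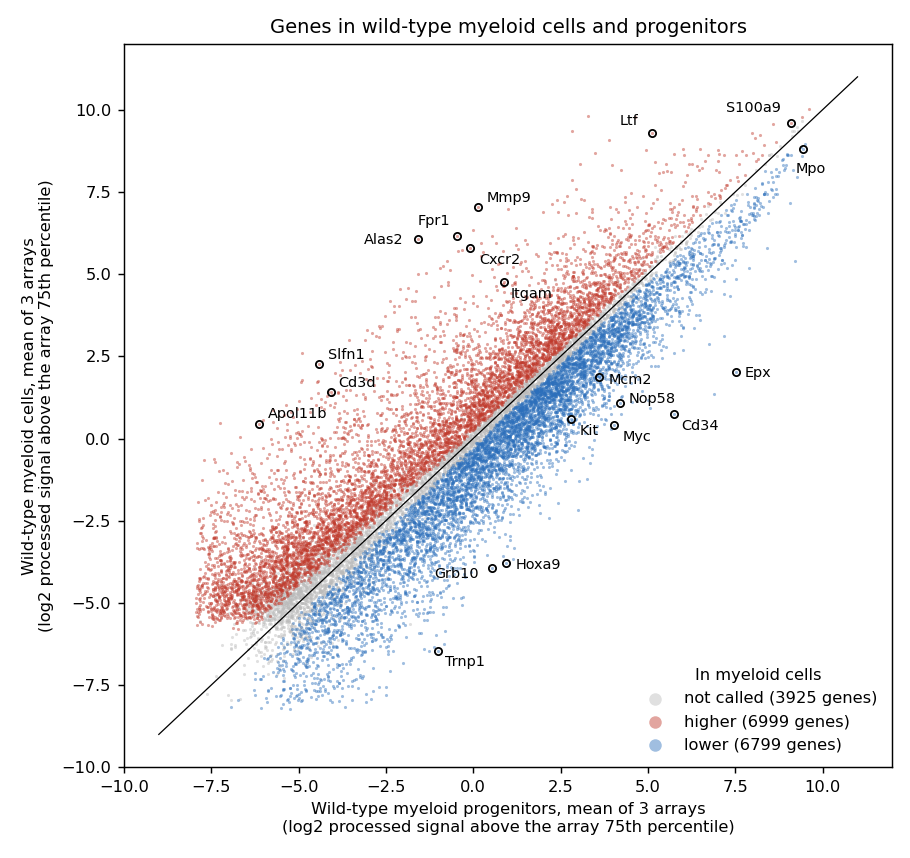
Mean log2 processed signal above the array 75th percentile in 3 wild-type progenitor samples (x axis) and 3 wild-type myeloid cell samples (y axis), 1 point per gene, coloured by limma's call at an adjusted p under 0.05, with the line of equal values. Of 17723 genes 6999 lie in red (higher in myeloid cells) and 6799 in blue (lower), and Mmp9, Cxcr2 and Slfn1 stand far above the line and Cd34, Epx and Hoxa9 far below it.

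The stem and progenitor programme was lower in myeloid cells. Of 29 listed genes 24 fell (limma), 20 by at least 2-fold, and 3 rose. Their median was -2.46 (all genes 0.07), in the Rheb1-/- arrays -2.28 and within the slide -2.13. Cd34 read 5.64, 6.02 and 5.61 on the progenitor arrays and 0.67, 1.03 and 0.57 on the myeloid cell arrays, a 32.0-fold fall (log2 difference -5.0 ± 0.25 SE, n = 3 per group, limma adjusted p = 5.38e-08). The ranges lay far apart. Kit read 2.80, 2.89 and 2.70 on the progenitor arrays and 0.78, 0.56 and 0.42 on the myeloid cell arrays and fell 4.63-fold (log2 difference -2.21 ± 0.11 SE, n = 3 per group, limma adjusted p = 4.07e-08). Myb, which keeps progenitors immature, fell 6.14-fold from 5.53, 5.33 and 5.43 to 2.65, 2.62 and 3.16. The cyclin D kinase Cdk6 fell 6.33-fold, the adhesion receptor Adgrg1 16.8-fold, the costimulatory receptor Cd27 26.4-fold and Gata2, which stem cells and mast cells require, 8.86-fold. The cytokine receptor Flt3 read -2.38, -2.22 and -3.14 on the progenitor arrays and -3.43, -3.44 and -3.58 on the myeloid cell arrays and fell 1.87-fold. Erg, Spink2 and Ly6a rose, and Ly6a, the stem cell antigen Sca-1, which interferon also induces, rose 5.47-fold (log2 difference 2.45 ± 0.11 SE, n = 3 per group, limma adjusted p = 3.03e-08). Mecom and Prom1 did not pass.

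The homeobox genes of the Hoxa cluster, which pattern the embryo and keep blood progenitors renewing, lie together on chromosome 6. The family was picked after its values were seen. Of 8 tested, 6 fell, Hoxa9 furthest, from 1.12, 0.95 and 0.78 to -4.24, -3.64 and -3.49 (log2 difference -4.74 ± 0.30 SE, n = 3 per group, limma adjusted p = 2.20e-07). Its probe lies at chr6:52174269-52174328 of mm9. Hoxa7 fell 18.1-fold and Hoxa5, above background on no myeloid cell array, had a fitted difference of -4.02. Hoxa3 (0.08) and Hoxa6 (-0.78) did not pass.

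**Figure D2:**
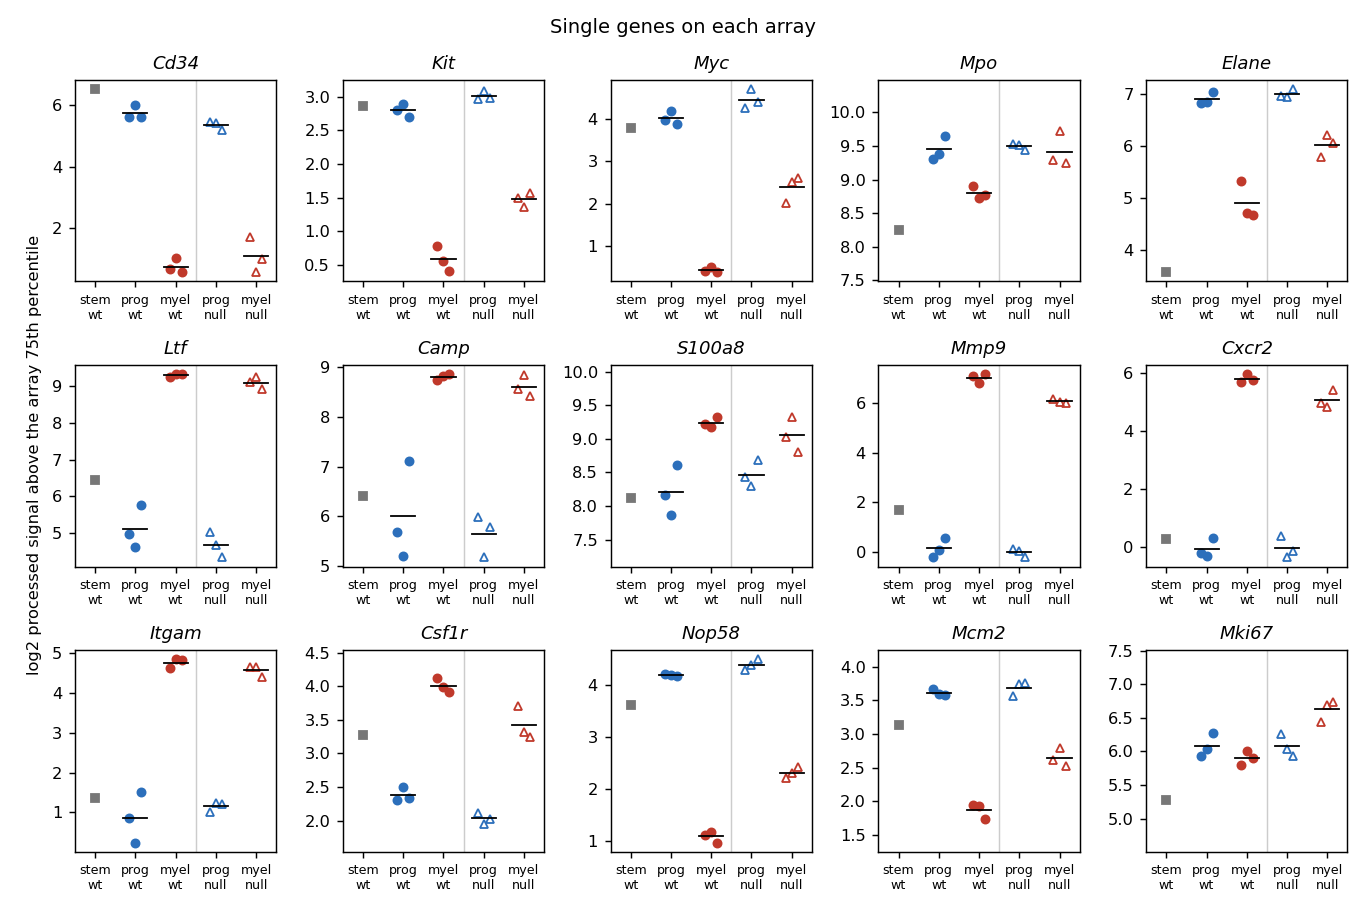
Log2 processed signal above the array 75th percentile (y axis, scaled per panel) of 15 genes on each array of wild-type stem cells (grey square, 1 array), wild-type progenitors and myeloid cells (filled circles) and Rheb1-/- ("null") progenitors and myeloid cells (open triangles), with a bar at the mean of 3 arrays. Cd34, Kit, Myc, Nop58 and Mcm2 are lower in myeloid cells of both genotypes, Ltf, Camp, Mmp9, Cxcr2, Itgam and Csf1r are higher, and the wild-type Mki67 samples overlap.

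Granule genes divided by the stage at which they are made. Primary granules form first, at the promyelocyte stage, and their genes mostly fell (11 of 15 lower, 3 higher, limma; median -1.91, additive slide model -1.15). Myeloperoxidase, Mpo, read 9.31, 9.38 and 9.65 on the progenitor arrays and 8.90, 8.72 and 8.77 on the myeloid cell arrays. The groups did not overlap, but the difference was small, -0.65 (limma adjusted p = 0.00134). In Rheb1-/- cells it was -0.08, and the call ended in the additive slide model (-0.25, limma adjusted p = 0.341). The serine proteases fell further. Neutrophil elastase, Elane, read 6.82, 6.83 and 7.04 on the progenitor arrays and 5.33, 4.72 and 4.67 on the myeloid cell arrays (log2 difference -1.99 ± 0.17 SE, n = 3 per group, limma adjusted p = 2.24e-06). Proteinase 3, Prtn3, fell 6.98-fold, from 7.12, 7.18 and 7.27 to 4.88, 4.31 and 3.96, and cathepsin G, Ctsg, 3.75-fold. Prss57, another granule protease, fell 4.32-fold, the cysteine protease inhibitor Cst7 7.76-fold and the granule membrane protein Nkg7 8.11-fold. The chaperone Calr, which helps fold myeloperoxidase, fell 6.6-fold. The lysozyme genes Lyz1 and Lyz2, which macrophages also make, and Serpinb1a, which inhibits these proteases, rose. In Rheb1-/- cells the list's median was -0.67 and within the slide -0.70, and 9 of the 15 genes had a cell type difference that differed between genotypes (limma, against 11.1% of all genes).

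The secondary and tertiary granule genes, made from the myelocyte stage on, rose. Of 24, 23 were higher, 22 by at least 2-fold, and none was lower (limma; median 4.01, Rheb1-/- 3.47, within the slide 3.44). Ltbp1 (0.80) did not pass. Gelatinase B, Mmp9, of tertiary granules read -0.23, 0.07 and 0.56 on the progenitor arrays and 7.10, 6.82 and 7.18 on the myeloid cell arrays and rose 119-fold (log2 difference 6.90 ± 0.19 SE, n = 3 per group, limma adjusted p = 6.6e-09). The collagenase Mmp8 rose 63.3-fold, the iron-sequestering protein Lcn2 32.6-fold, and Padi4, which citrullinates histones, 22.1-fold. Lactoferrin, Ltf, read 4.97, 4.61 and 5.75 on the progenitor arrays and 9.25, 9.32 and 9.33 on the myeloid cell arrays (log2 difference 4.19 ± 0.26 SE, n = 3 per group, limma adjusted p = 2.03e-07). The neutrophilic granule protein Ngp read 4.60, 4.29 and 5.94 on the progenitor arrays and 8.71, 8.81 and 8.82 on the myeloid cell arrays, and the antimicrobial peptide gene Camp 5.69, 5.20 and 7.12 on the progenitor arrays and 8.75, 8.83 and 8.87 on the myeloid cell arrays. Camp rose 7.0-fold (limma adjusted p = 1.07e-04). For Ltf, Ngp and Camp progenitor array 3 was the highest of its group, and it still lay below every myeloid cell array. The metalloprotease Adam8 rose 25.3-fold.

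Promoter letters were set beside these genes because many of them moved together. Windows of 250 bases before to 50 after the start, 1 per gene, came from RefSeq (GRCm38.p6) and matched 11344 of the tested genes. They were searched on both strands for TTGCNNAA, bound by C/EBP proteins, which drive granule genes. The letters occurred in 8 of 20 secondary and tertiary granule promoters (40%), in 20.7% of late neutrophil promoters, in 8.70% of those of all tested genes and in 10.8% of all 27025 windows in the table. A match is a description of letters and not of binding. The 150 bases before the start are printed for 3 granule genes that rose, from the 5′ end in the direction of transcription, with the C/EBP letters in capitals. They lie at chr9:111019142-111019291, plus strand for Ltf, chr9:110419658-110419807, plus strand for Ngp and chr9:7558279-7558428, plus strand for Mmp8.
Ltf: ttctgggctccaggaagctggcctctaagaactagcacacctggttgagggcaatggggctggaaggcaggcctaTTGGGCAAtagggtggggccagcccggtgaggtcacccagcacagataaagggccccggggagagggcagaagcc
Ngp: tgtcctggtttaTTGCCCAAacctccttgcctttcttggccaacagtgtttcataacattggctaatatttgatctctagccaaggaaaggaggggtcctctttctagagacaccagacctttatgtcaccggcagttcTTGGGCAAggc
Mmp8: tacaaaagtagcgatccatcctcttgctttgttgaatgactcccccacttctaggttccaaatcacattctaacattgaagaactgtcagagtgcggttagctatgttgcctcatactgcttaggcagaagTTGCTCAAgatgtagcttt

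Genes of late neutrophils rose without exception in the list. All 31 passed (limma; 30 by at least 2-fold; median 4.37, Rheb1-/- 4.01, within the slide 3.96). The formyl peptide receptor Fpr1, which senses bacterial peptides, read -0.79, -0.63 and 0.03 on the progenitor arrays and 6.04, 6.12 and 6.33 on the myeloid cell arrays, a 98.8-fold rise (log2 difference 6.63 ± 0.23 SE, n = 3 per group, limma adjusted p = 9.79e-09). The chemokine receptor Cxcr2, which draws neutrophils out of the marrow, read -0.23, -0.33 and 0.29 on the progenitor arrays and 5.68, 5.95 and 5.76 on the myeloid cell arrays and rose 59.2-fold. Every myeloid cell array was above every progenitor array for both. Csf3r rose 8.0-fold, the secreted Retnlg 20.7-fold and the interleukin-1 receptor antagonist Il1rn 65.4-fold. The smallest rises were those of the calprotectin subunits, which progenitors already expressed. S100a8 read 8.16, 7.87 and 8.61 on the progenitor arrays and 9.22, 9.17 and 9.33 on the myeloid cell arrays, and S100a9 8.90, 8.96 and 9.40 on the progenitor arrays and 9.47, 9.60 and 9.72 on the myeloid cell arrays. S100a8 rose by 1.03 (limma adjusted p = 6.72e-04) and S100a9 by 0.51 (0.00659). Scaling to the median ended the call of S100a9 (0.22, limma adjusted p = 0.125), and the additive slide model ended both (0.88, limma adjusted p = 0.0765, and 0.41, 0.146).

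**Figure D3:**
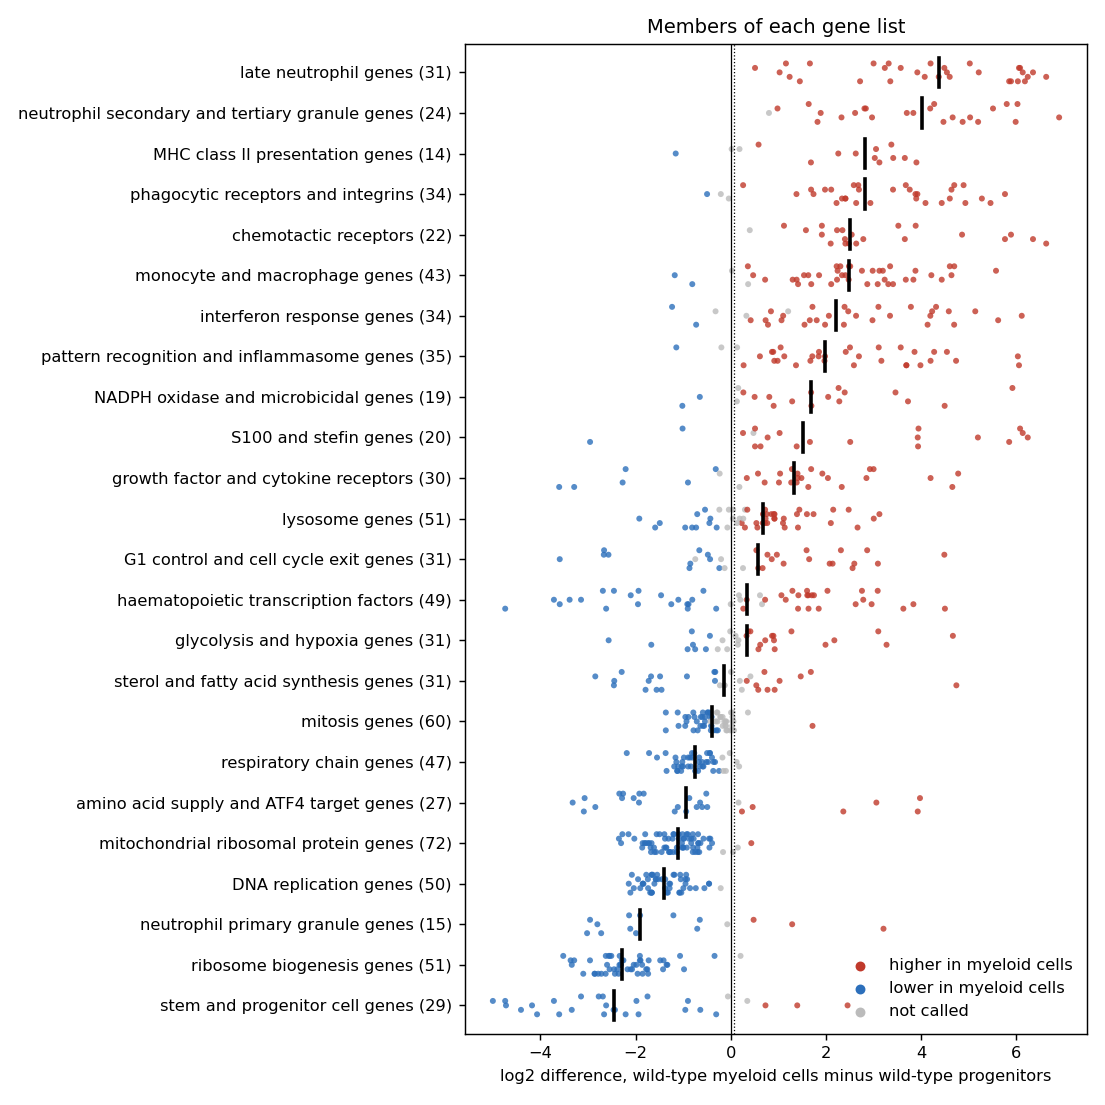
Log2 difference of wild-type myeloid cells minus progenitors (x axis) for each tested member of 24 gene lists (y axis, number tested in brackets), coloured by limma's call, with a black bar at the list's median and a dotted line at the median of all genes, 0.07. The late neutrophil list has a median of 4.37 and the stem and progenitor list -2.46, and mitosis genes gather near 0 while DNA replication genes lie lower.

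The receptors with which phagocytes find and take up their targets rose as sets. Of 22 chemotactic receptors 21 rose and none fell (limma; median 2.51, Rheb1-/- 2.02). Only 14 were above background on all 3 progenitor arrays, and members dim in progenitors had little room to fall. Over members above background on all 12 arrays 13 of 14 rose (limma; median 2.29). Fpr2 rose 81.5-fold, and Ccr2, which brings monocytes out of the marrow, 4.70-fold, from 1.65, 1.71 and 1.91 to 3.99, 3.97 and 4.01. Of 34 phagocytic receptors and integrins 31 rose and 1, the endothelial and macrophage scavenger receptor Stab1 (-0.50), fell (median of the list 2.81, Rheb1-/- 2.33, within the slide 2.35). Another probe of Stab1, above background on 1 myeloid cell array and no progenitor array, gave 1.97. With the mean of probes 31 rose and 0 fell. Over members above background on all 12 arrays 22 of 25 rose and 1 fell (limma). Itgam read 0.86, 0.24 and 1.51 on the progenitor arrays and 4.63, 4.85 and 4.82 on the myeloid cell arrays (log2 difference 3.90 ± 0.25 SE, n = 3 per group, limma adjusted p = 2.58e-07). Its partner Itgb2 rose 13.5-fold and Itgal, the other chain of LFA-1, 4.66-fold. The immunoglobulin G receptors Fcgr1 and Fcgr4 rose 21.6-fold and 24.9-fold, the sialic acid receptor Cd33 43.9-fold and the scavenger receptor Lrp1 7.63-fold. C5ar1, which binds the complement fragment C5a, was highest in the list at 5.76.

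Sensors and killing enzymes rose too. Pattern recognition and inflammasome genes were higher in 32 of 35 and lower in 1 (limma; median 1.98, Rheb1-/- 2.36). Tlr2, a receptor for bacterial lipoproteins, read 1.03, 1.17 and 1.18 on the progenitor arrays and 4.26, 4.31 and 4.30 on the myeloid cell arrays and rose 8.96-fold (log2 difference 3.16 ± 0.10 SE, n = 3 per group, limma adjusted p = 9.67e-09). Its partner Tlr6 rose 5.67-fold and the lectin Clec4e, which senses mycobacterial glycolipid, 11.9-fold. Tnfaip3, which damps NF-kB signalling, fell (-1.14). Of the NADPH oxidase and microbicidal genes 15 of 19 rose and Mpo and Sod2 fell (median 1.69, Rheb1-/- 1.32). The oxidase core subunit Cybb rose 11-fold, from 2.01, 1.79 and 2.71 to 5.70, 5.61 and 5.58, and its cytosolic partner Ncf1 5.25-fold. Slc11a1, which exports metal ions from the phagosome, rose 60.4-fold. Lysosome genes were more evenly divided, 31 higher and 11 lower of 51 (median 0.67, 0.38 with median scaling and 0.52 with normexp background). The protease Ctss rose 8.71-fold, Cd68 of phagocyte lysosomes 5.56-fold and Cln3 6.33-fold, while the glycogen-digesting Gaa was the lowest at -1.92.

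Monocyte and macrophage genes rose alongside those of neutrophils. Of 43, 39 were higher, 36 by at least 2-fold, and Irf8 and Vcam1 were lower (limma; median 2.48, Rheb1-/- 2.02, within the slide 2.12, normexp background 1.93). Only 37 were above background on all 3 progenitor arrays and Mertk and Timd4 on none, and members dim in progenitors had little room to fall. Over members above background on all 12 arrays 33 of 36 rose and 2 fell (limma; median 2.27). Csf1r, the receptor of the macrophage growth factor, read 2.31, 2.5 and 2.33 on the progenitor arrays and 4.12, 3.99 and 3.91 on the myeloid cell arrays and rose 3.09-fold (log2 difference 1.63 ± 0.12 SE, n = 3 per group, limma adjusted p = 7.57e-07), in Rheb1-/- cells by 1.39. The complement genes C1qa, C1qb and C1qc of tissue macrophages were among those that rose, at 2.75, 2.30 and 2.87. The GAGGAAGT letters of PU.1 occurred in 4 of 31 promoters of this list (12.9%), 15% of secondary and tertiary granule promoters, 12.8% of ribosome biogenesis promoters, 3.1% of those of all tested genes and 3.28% of all windows.

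The regulators of the lineage moved in both directions. Of 49 haematopoietic transcription factors 24 rose and 20 fell (limma; median 0.33, 0.041 with median scaling and 1.22 in the additive slide model). Spi1, the gene of PU.1, read 0.66, 0.31 and 0.46 on the progenitor arrays and 1.89, 1.66 and 1.34 on the myeloid cell arrays and rose 2.23-fold (log2 difference 1.15 ± 0.16 SE, n = 3 per group, limma adjusted p = 6.79e-05). Cebpa, which starts the granulocyte programme, read 2.45, 2.59 and 2.35 on the progenitor arrays and 1.45, 1.38 and 1.26 on the myeloid cell arrays and fell 2.15-fold, with a log2 difference of -1.10 in Rheb1-/- cells as well. The repressor Gfi1 fell 2.76-fold and Irf8, which steers towards monocytes and dendritic cells, 1.75-fold. The activator protein genes Junb and Fosl2 rose 6.75-fold and 12.3-fold, Irf5, which induces inflammatory cytokines, 7.77-fold, and Cebpb and Cebpd rose by 1.61 and 2.03. Of the growth factor and cytokine receptors 22 of 30 rose and 6 fell (median 1.33), the falls including those of Kit, Flt3, Il5ra, Il1r1 and Ifngr1. Il13ra1 rose 27.4-fold, Il18r1 25.2-fold and Ifngr2 5.03-fold.

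Interferon response and antigen presentation genes were higher in myeloid cells. Of 34 interferon response genes 29 rose and 2 fell (limma; median 2.22, Rheb1-/- 1.95, within the slide 1.62). Irf7, the factor that amplifies interferon production, read -3.22, -3.15 and -2.94 on the progenitor arrays and 1.48, 1.16 and 0.98 on the myeloid cell arrays and rose 19.9-fold (log2 difference 4.31 ± 0.20 SE, n = 3 per group, limma adjusted p = 3.67e-08). Ifit3 rose 49.1-fold, the RNA sensor Oas3 35.2-fold and the antiviral GTPase Mx1 8.58-fold. MHC class II presentation genes rose in 11 of 14 and fell in 1 (median 2.82, Rheb1-/- 2.71, within the slide 3.06, normexp background 1.84), with the costimulatory ligand Cd86 at 3.05 and Cd40 at 3.90, each above background on 2 of 3 progenitor arrays. B cells and dendritic cells express this set too. The medians of their marker lists, described further on, were 2.87 and 2.40 in wild type and 0.96 and 0.95 in Rheb1-/- cells. The dendritic cell list shares H2-Aa and H2-Ab1 with this set. The part of these cells in the rise was not tested.

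Cell cycle genes of S phase fell by more than those of mitosis. Of 50 DNA replication genes 49 fell, 39 by at least 2-fold, and none rose (limma; median -1.41, Rheb1-/- -0.79, within the slide -0.72, additive slide model -0.92). All 6 subunits of the MCM helicase, which unwinds DNA at the replication fork, fell, from -1.38 for Mcm5 to -1.85 for Mcm6. Mcm2 read 3.66, 3.59 and 3.57 on the progenitor arrays and 1.94, 1.93 and 1.73 on the myeloid cell arrays (log2 difference -1.74 ± 0.10 SE, n = 3 per group, limma adjusted p = 1.14e-07). The spread within each group was small beside the gap. Rrm2 (-0.21), a ribonucleotide reductase subunit, did not pass.

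Mitosis genes changed less than replication genes. Of 60, 32 fell, 4 of them by at least 2-fold, 1 rose, the mitotic phosphatase Cdc25b (3.29-fold), and 27 did not pass (limma; 55% called, below the 77.9% of all genes). The median difference was -0.39. It was -0.68 with median scaling, which called 48 lower and 1 higher, and 0.080 in the additive slide model, which called 4 lower and 10 higher. In Rheb1-/- cells it was 0.22, and 21 rose and 6 fell, so its direction depended on setting and genotype. On single wild-type arrays the list's median level ran from 2.24 to 2.40 in progenitors and from 1.98 to 2.16 in myeloid cells. Mki67, the proliferation antigen, read 5.93, 6.04 and 6.27 on the progenitor arrays and 5.79, 6.01 and 5.91 on the myeloid cell arrays. The groups overlapped and the difference of -0.17 ± 0.13 SE did not pass (limma adjusted p = 0.238). It passed with median scaling (-0.47, limma adjusted p = 0.00645) and, the other way, in the additive model (0.51, 0.0335). Top2a, which untangles chromosomes, read 2.59, 2.58 and 2.63 on the progenitor arrays and 2.57, 2.36 and 2.57 on the myeloid cell arrays and did not pass (-0.10, limma adjusted p = 0.620; 0.22 with the mean of its probes and 0.18 in the additive model, neither passing). Another probe of Top2a, above background on all 3 myeloid cell arrays and 2 of 3 progenitor arrays, gave 1.16. Cdk1 read 1.73, 2.01 and 1.60 on the progenitor arrays and 1.52, 0.82 and 0.63 on the myeloid cell arrays, a log2 difference of -0.79 (limma adjusted p = 0.00612) that the additive model did not call (-0.19, 0.658). In Rheb1-/- cells 47 of 50 replication genes fell and 1 rose.

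The promoters of the 2 sets held different letters. The E2F letters TTTGGCGC, TTTCCCGC or TTTGGCGG, E2F being the factor that RB holds in check, occurred in 15 of 41 replication promoters (36.6%), 8% of mitosis promoters, 3.66% of those of all tested genes and 2.16% of all windows. The TTTGAA of the CHR element, through which mitotic genes are repressed in resting cells, occurred in 35 of 50 mitosis promoters (70%), 17.1% of replication promoters, 12.6% of those of tested genes and 18.1% of all windows. CCAAT occurred in 76% of mitosis and 61.0% of replication promoters, against 38.9% for tested genes and 37.9% of all windows. None of the motifs searched contains another, although matches can overlap. The windows of 2 replication genes that fell, with E2F letters in capitals, lie at chr1:128359706-128359855, minus strand for Mcm6 and chr11:98908001-98908150, plus strand for Cdc6. Those of 2 mitosis genes that did not pass, with CHR letters in capitals, lie at chr11:99024190-99024339, minus strand for Top2a and chr7:135716380-135716529, minus strand for Mki67, all of GRCm38.p6. Cdc6, which loads the helicase, fell (-1.90).
Mcm6: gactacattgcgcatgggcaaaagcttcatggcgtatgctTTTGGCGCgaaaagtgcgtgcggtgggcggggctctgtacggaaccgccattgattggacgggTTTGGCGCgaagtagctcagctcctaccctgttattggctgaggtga
Cdc6: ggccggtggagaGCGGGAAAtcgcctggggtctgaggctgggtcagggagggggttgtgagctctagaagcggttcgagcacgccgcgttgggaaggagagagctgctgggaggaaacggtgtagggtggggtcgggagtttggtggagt
Top2a: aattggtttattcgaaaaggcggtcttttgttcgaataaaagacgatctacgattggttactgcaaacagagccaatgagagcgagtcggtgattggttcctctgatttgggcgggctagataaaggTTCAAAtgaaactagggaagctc
Mki67: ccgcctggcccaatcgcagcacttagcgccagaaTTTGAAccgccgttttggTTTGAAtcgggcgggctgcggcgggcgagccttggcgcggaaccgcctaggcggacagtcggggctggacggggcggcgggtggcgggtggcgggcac

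Controllers of the G1 phase moved in both directions, 17 higher and 10 lower of 31 (limma; median 0.58, 0.28 with median scaling). The antagonist of MYC, Mxd1, read 1.24, 0.94 and 1.67 on the progenitor arrays and 5.69, 5.73 and 5.88 on the myeloid cell arrays and rose 22.4-fold (log2 difference 4.49 ± 0.16 SE, n = 3 per group, limma adjusted p = 1.06e-08), and in Rheb1-/- cells it differed by 4.33. Myc itself read 3.97, 4.20 and 3.89 on the progenitor arrays and 0.40, 0.49 and 0.38 on the myeloid cell arrays and fell 12.1-fold (log2 difference -3.59 ± 0.17 SE, n = 3 per group, limma adjusted p = 3.39e-08), with a log2 difference of -2.07 in Rheb1-/- cells. Neither gene's groups overlapped. Cdkn1b, the cyclin kinase inhibitor p27, rose 4.22-fold, and the other members that rose included the inhibitors Cdkn1c, Cdkn2c and Cdkn2d and the pocket proteins Rb1 and Rbl2. Those that fell included Cdk4, Cdk6, E2f1, Ccne1 and Ccnd2, which push cells into S phase. The probes of Mycn, a relative of Myc, went opposite ways. The reported one gave -3.72 and was above background on no myeloid cell array, and the other gave 1.39 and was above background on all 3 of them and on no progenitor array.

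Ribosome biogenesis genes, many of which MYC activates, fell almost as a block. Of 51, 50 fell, 48 by at least 2-fold, and Polr1a (0.20) did not pass (limma; median -2.29, Rheb1-/- -1.72, within the slide -1.65). Nop58, a core protein of the particles that methylate ribosomal RNA, read 4.21, 4.19 and 4.18 on the progenitor arrays and 1.12, 1.18 and 0.97 on the myeloid cell arrays and fell 8.57-fold (log2 difference -3.1 ± 0.09 SE, n = 3 per group, limma adjusted p = 7.16e-09). Its partners Nop56 and the methyltransferase Fbl fell 5.70-fold and 4.96-fold. Nucleolin, Ncl, fell 5.06-fold, the ribosome assembly factor Grwd1 7.28-fold and Gnl3, the lowest in the list, 11.5-fold. The E-box CACGTG, bound by MYC with MAX, occurred in 10 of 47 of these promoters (21.3%), against 9.65% for all tested genes, 11% for the genes called lower and 7.24% of all windows. Windows of 2 genes that fell are printed with the E-box in capitals, Nop2 at chr6:125131733-125131882, plus strand and Utp18 at chr11:93885767-93885916, minus strand, both of GRCm38.p6. Nop2, an RNA methyltransferase, differed by -1.91 and Utp18, of the small subunit processome, by -1.75.
Nop2: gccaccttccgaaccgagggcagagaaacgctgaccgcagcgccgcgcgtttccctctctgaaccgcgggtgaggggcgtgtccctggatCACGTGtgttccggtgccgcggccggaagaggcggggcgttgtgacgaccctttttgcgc
Utp18: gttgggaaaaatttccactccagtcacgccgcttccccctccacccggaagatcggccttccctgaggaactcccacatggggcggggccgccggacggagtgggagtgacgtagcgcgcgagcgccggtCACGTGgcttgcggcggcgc

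Mitochondrial genes fell by less. Of 72 mitochondrial ribosomal protein genes 68 fell and Mrpl33 (0.43) rose (limma; median -1.11, Rheb1-/- -0.94). Mrpl12 fell 5.10-fold, Mrps28 4.94-fold and Mrps6 4.85-fold. Of 47 respiratory chain genes 41 fell, 15 by at least 2-fold, and none rose (median -0.75, Rheb1-/- -0.63). The ATP synthase subunit Atp5g1 read 4.90, 5.18 and 4.99 on the progenitor arrays and 3.06, 2.99 and 2.47 on the myeloid cell arrays and fell 4.55-fold (log2 difference -2.19 ± 0.15 SE, n = 3 per group, limma adjusted p = 4.32e-07), while cytochrome c, Cycs, fell 3.29-fold.

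Glucose, lipid and amino acid genes changed member by member. In glycolysis and hypoxia 16 of 31 rose and 8 fell (limma; 77.4% called, near the 77.9% of all genes; median 0.33, 0.038 with median scaling). The glucose transporter Slc2a3 read 1.39, 1.04 and 1.20 on the progenitor arrays and 6.0, 5.72 and 5.92 on the myeloid cell arrays and rose 25.4-fold (log2 difference 4.67 ± 0.14 SE, n = 3 per group, limma adjusted p = 7.16e-09). The lactate exporter Slc16a3 rose 9.66-fold and Pfkfb4, which tunes the flux through glycolysis, 8.56-fold. Pdk1, which closes the entry of pyruvate into mitochondria, fell 5.92-fold. In sterol and fatty acid synthesis 10 of 31 rose and 14 fell (77.4% called; median -0.14, -0.43 with median scaling). Fatty acid synthase, Fasn, fell 7.20-fold, from 5.78, 6.18 and 5.91 to 3.25, 3.21 and 2.86. The desaturases went opposite ways. Scd2 fell 5.46-fold, and Scd1, above background on no progenitor array, had a fitted difference of 4.74. Within sterol synthesis Dhcr7 fell 3.46-fold while Msmo1 rose 3.21-fold. Of the amino acid supply and ATF4 target genes 20 of 27 fell and 6 rose (median -0.94). Phgdh, the first enzyme of serine synthesis, fell from 5.82, 6.18 and 6.01 to 2.85, 2.74 and 2.45 (log2 difference -3.32 ± 0.12 SE, n = 3 per group, limma adjusted p = 1.14e-08), and Psph, the last, fell 3.56-fold. The stress-induced Chac1, which degrades glutathione, rose 15.2-fold, and the cystine transporter Slc7a11 was the highest at 3.97.

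Immediate early and heat shock genes, which respond to cell handling, were divided, 7 higher and 11 lower of 25, 72% called (limma; median 0.20, Rheb1-/- 0.68, -0.094 with median scaling and 0.77 in the additive slide model, which called 12 higher and 5 lower). The chaperones Hsp90aa1 and Hsph1 fell 4.45-fold and 5.66-fold. Fos (0.61) and Egr1 (0.20) did not pass.

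Several gene families rose together, most of whose members sit in clusters. The families were picked after their values were seen, so their counts describe them only. All 8 tested stefin A and related cystatin genes, inhibitors of cysteine proteases on chromosome 16, rose, from 3.93 for Csta2 to 6.38 for Cstdc4. Their sequences are close, so probes may take signal from neighbours. Stfa2 read -2.79, -2.57 and -2.18 on the progenitor arrays and 3.54, 3.86 and 3.78 on the myeloid cell arrays. All 8 Schlafen genes on chromosome 11, which interferon induces in many cells, rose, Slfn1 by 6.67 and Slfn9 by 1.11. Slfn1 read -4.63, -4.69 and -3.92 on the progenitor arrays and 2.57, 2.08 and 2.13 on the myeloid cell arrays (log2 difference 6.67 ± 0.22 SE, n = 3 per group, limma adjusted p = 9.67e-09). All 6 CD300 receptors rose, Cd300ld by 6.20, and so did 8 of 8 C-type lectin genes of the Clec4 group, Clec4a3 by 5.39. Cd300lg and Clec4g lie apart from the others of their family. Of the S100 and stefin list, which includes some of these, 17 of 20 rose and 2 fell (limma; median 1.52, 0.76 with normexp background and 0.89 in the additive slide model). S100a11 rose 5.69-fold.

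Other genes led the order of sizes. Above background on all 6 arrays, the largest rise was that of Alas2, the first enzyme of heme synthesis in red cells (203-fold). Behind it, among the genes reported here, came Mmp9, Slfn1, Fpr1, Scrg1 (96.5-fold), Ceacam10 (94.7-fold), the alpha globin Hba-a2, the chemokine-like Prok2 (92.7-fold), the second alpha globin Hba-a1, the interferon lambda receptor Ifnlr1 (87.2-fold) and Cstdc4. Prok2 read -3.89, -4.08 and -2.67 on the progenitor arrays and 2.90, 2.99 and 3.07 on the myeloid cell arrays. The largest falls were the eosinophil granule genes Prg3 (46.2-fold) and Epx (44.5-fold), then 4930519L02Rik, Cd34, the interleukin-25 receptor Il17rb (28.2-fold), Hoxa9, Cd27, the iron sensor Tfr2, Adgra3, the platelet-derived growth factor receptor Pdgfrb (22.8-fold), Ppic and the insulin receptor adaptor Grb10. Grb10 read 0.64, 0.52 and 0.45 on the progenitor arrays and -3.94, -4.08 and -3.84 on the myeloid cell arrays (log2 difference -4.49 ± 0.12 SE, n = 3 per group, limma adjusted p = 6.6e-09).

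Some genes were measured on 1 side only, and their fold is a lower bound, the brighter group against the lowest well-measured signal. Apol11b, above background on all 3 myeloid cell arrays and on no progenitor array, was at least 69.9-fold higher, Ifit1bl1 39.9-fold, Krtap21-1 35.2-fold, Lyve1, a hyaluronan receptor of lymph vessels and some macrophages, 34.7-fold and Cryba4 33.5-fold. The kallikrein gene Klk1b24 was at least 33.1-fold higher in wild type, but it read -6.70, -7.74 and -6.96 on the Rheb1-/- myeloid cell arrays. In the additive slide model, which pools the genotypes, its difference turned (-3.62, limma adjusted p = 0.00911). In the other direction Trnp1 was at least 29.3-fold lower, Zscan18 25.7-fold, the keratin Krt8 15.3-fold, the glypican Gpc3 11.6-fold, Sytl4, which docks secretory vesicles, 11.6-fold and the olfactory receptor gene Olfr1 11.4-fold. None of the probes of these genes was above background in the dimmer group. All 64 other probes of named genes that were above background on all 6 arrays had the direction of the reported probe. Of those above background on fewer arrays, 1 of Top2a and 3 of Zbtb46 went the other way, the latter above background on no array. These counts cover only the genes named by the rule given under processing. Other list members mentioned had opposite probes too, among them Mycn (1.39), Stab1 (1.97), Ltbp1 (-2.13) and Mecom (-2.48 and -1.24).

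Markers of red cells, B cells, T cells and dendritic cells were higher in the myeloid cells, and how far these cells took part in other results was not tested. Of 24 erythroid markers 15 rose and 2 fell (limma; 70.8% called, below the 77.9% of all genes; median 2.41, Rheb1-/- 0.70, within the slide 0.62, normexp background 1.39). Over members above background on all 12 arrays 10 of 18 rose and 2 fell (median 1.01). In Rheb1-/- cells 10 of the 24 markers were higher and 6 lower. In the additive slide model 9 were called higher (median 1.34). Their summed signal, on the log2 scale, ran from 4.92 to 6.02 in the progenitors and from 10.59 to 11.08 in the myeloid cells. Alas2 read -0.98, -1.31 and -2.47 on the progenitor arrays and 5.28, 6.59 and 6.38 on the myeloid cell arrays, and Hba-a1 3.89, 3.67 and 2.34 on the progenitor arrays and 9.43, 9.91 and 10.08 on the myeloid cell arrays. Progenitor array 3 was the lowest of its group for both. All 7 tested globin genes rose, from a fitted 4.80 for Hbb-bh1 to 6.67 for Hbq1a, although near-identical globins can share signal. The probes of Hbb-bh1 and Hbq1a were above background on no progenitor array. Hba-a1, Hba-a2 and Hbb-bt, above background on all 6 arrays, rose by 6.51, 6.54 and 5.13. The anion exchanger Slc4a1 of the red cell membrane rose 34.7-fold, while Gata1, which drives early erythroid cells, and Tfrc fell. Rhag and Sptb were above background on no progenitor array.

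B cell markers rose in 19 of 22 and fell in none (limma; median 2.87, Rheb1-/- 0.96, within the slide 0.88, normexp background 1.54). Over members above background on all 12 arrays 11 of 14 rose (median 2.29). In the additive slide model 11 of the 22 markers were called higher (median 1.89). Their summed signal ran from 5.08 to 5.27 in progenitors and from 6.23 to 6.97 in myeloid cells. Spib, a transcription factor of B cells and plasmacytoid dendritic cells, read -3.25, -3.23 and -3.47 on the progenitor arrays and 0.53, 0.86 and 1.32 on the myeloid cell arrays (log2 difference 4.22 ± 0.31 SE, n = 3 per group, limma adjusted p = 6.50e-07), so myeloid cell array 1 was the lowest of its group. Pax5 and Rag2, also on the B cell list but not tested, were above background on no wild-type array of either cell type. T and NK cell markers rose in 18 of 23 and fell in 3 (median 1.25, Rheb1-/- 0.29, normexp background 0.76). Over members above background on all 12 arrays 12 of 16 rose and 3 fell (median 0.91). In the additive slide model 7 of the 23 markers were called higher (median 0.71), and in Rheb1-/- cells 8 were higher and 4 lower. Their summed signal went the other way, from 7.32 to 7.42 in progenitors and 4.91 to 5.09 in myeloid cells. The list includes Nkg7 and Gzmb (-3.48), which fell. Cd3d rose 45-fold and Cd3g, on no progenitor array above background, at least 2.90-fold. Dendritic cell markers rose in 15 of 22 and fell in 5 (median 2.40, Rheb1-/- 0.95, normexp background 0.82, additive slide model 1.41), with sums of 5.77 to 6.02 and 5.88 to 6.02. Over members above background on all 12 arrays 9 of 15 rose and 5 fell (median 1.62). Itgax rose 15.1-fold and Xcr1 2.45-fold. The calls of Cd79a (1.11, limma adjusted p = 0.151), Fcer2a (2.08, 0.0572), Zap70 (0.57, 0.149) and Zbtb46 (0.88, 0.0826) ended in the additive slide model, and the mean of its probes also ended that of Zbtb46 (0.48, 0.295).

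**Figure D4:**
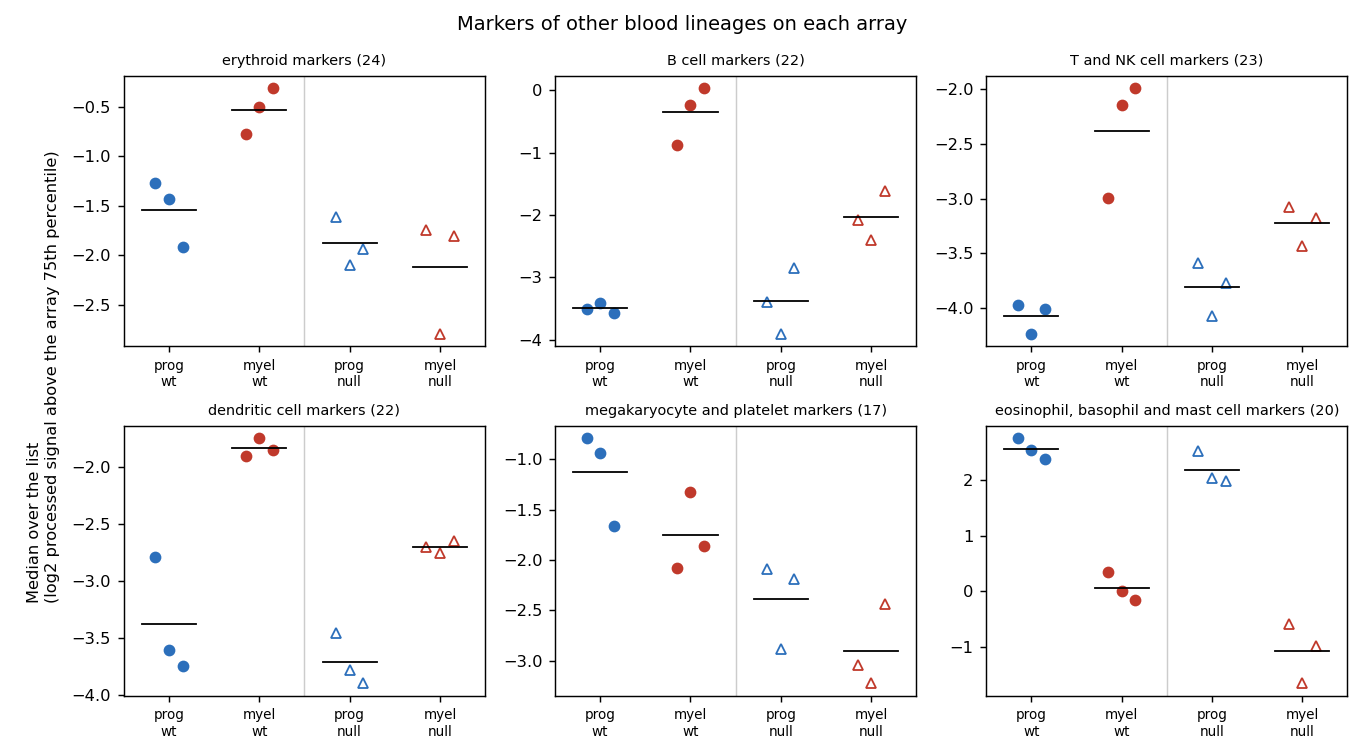
Median log2 processed signal above the array 75th percentile (y axis, scaled per panel) over the tested markers of 6 other blood lineages (number in brackets) on each array of wild-type (filled circles) and Rheb1-/- ("null", open triangles) progenitors and myeloid cells, with a bar at the mean of 3 arrays. In wild type the erythroid, B, T and NK, and dendritic cell medians are higher on every myeloid cell array, and the eosinophil, basophil and mast cell medians are lower. The wild-type megakaryocyte and platelet medians overlap.

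Markers of megakaryocytes and of eosinophils, basophils and mast cells went the other way. Of 17 megakaryocyte and platelet markers 10 fell and 4 rose (limma; median -2.87, Rheb1-/- -2.18, within the slide -1.66). The median was 0.077 over members above background on all 12 arrays, -1.21 with normexp background and -1.70 with the mean of probes. The median level of the list on single arrays overlapped between the groups. It was -0.79, -0.94 and -1.66 on the progenitor arrays and -2.08, -1.33 and -1.86 on the myeloid cell arrays. The integrin Itga2b read 0.33, 0.05 and -0.35 on the progenitor arrays and -3.56, -3.96 and -3.75 on the myeloid cell arrays and fell 13.6-fold (log2 difference -3.77 ± 0.33 SE, n = 3 per group, limma adjusted p = 2.15e-06), while its partner Itgb3 rose 4.30-fold. The sum over this list ran from 5.17 to 5.85 in progenitors and from 4.24 to 4.63 in myeloid cells. Of 20 eosinophil, basophil and mast cell markers 15 fell and 2 rose (median -2.74, Rheb1-/- -3.03). Epx, eosinophil peroxidase, read 7.84, 7.21 and 7.48 on the progenitor arrays and 3.02, 1.49 and 1.59 on the myeloid cell arrays, and the mast cell protease Cpa3 fell 19.8-fold. Sums ran from 10.31 to 10.67 in progenitors and from 7.5 to 8.19 in myeloid cells. Tpsab1 was above background on no array of either. Stroma and endothelium markers had 5 higher and 7 lower of 15 (median 0.23, which turned negative under 6 other settings), and Cxcl12, a niche chemokine, rose 12.2-fold.

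The wild-type and Rheb1-/- differences share no array, but both come from the same fit, with the same spread, choice of probe and gene filter. The same contrast in Rheb1-/- samples had largely the same directions. Limma called 12157 genes there (68.6%), 5379 higher (30.4%) and 6778 lower (38.2%). Of the genes higher in wild type 71.9% were also higher in Rheb1-/- cells, which is 93.5% of the latter, and of those lower 88.5% were lower, which is 88.7%. Directions were opposite in 57. The differences correlated across genes at r = 0.914, a description over genes that share their arrays. The cell type difference itself differed between genotypes in 1962 genes (11.1%; limma adjusted p under 0.05). That count was 3172 with median scaling, 775 without a filter, 1227 and 1212 without wild-type progenitor arrays 1 and 2, and 1120 and 1051 without wild-type myeloid cell arrays 2 and 3. Those among the named genes included Grb10 (wild type -4.49, Rheb1-/- -2.70), Myc (-3.59, -2.07), Nop58 (-3.1, -2.08), Elane (-1.99, -0.97) and Fcer2a (4.68, 0.95), in each of which the wild-type difference was further from 0. Fcer2a was above background on no wild-type progenitor array, so its 4.68 is a fitted value against unmeasured signal. Slides differed between the genotypes' arrays as well, and their part was not tested.

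**Figure D5:**
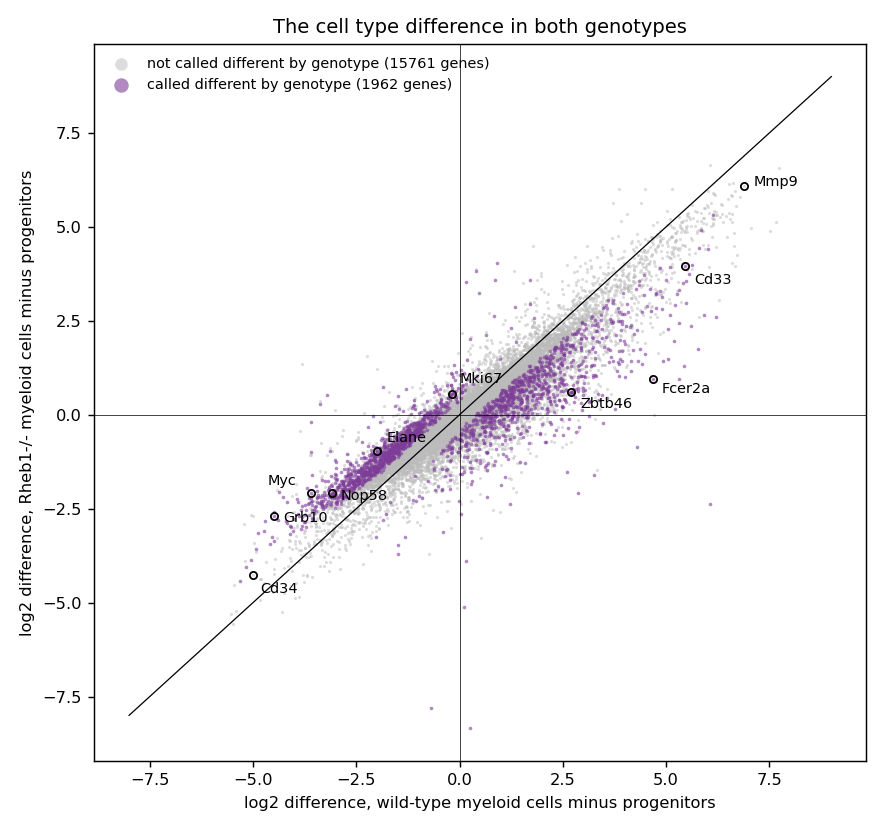
Log2 difference of myeloid cells minus progenitors in wild type (x axis) and Rheb1-/- (y axis) samples for 17723 genes, with the line of equal differences. The 1962 genes in purple have a difference that differs between genotypes (limma adjusted p under 0.05), and Myc, Nop58, Elane and Grb10 lie above the line on the left, Fcer2a, Cd33 and Zbtb46 below it on the right.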

How the data were processed

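Cy3-labelled RNA was hybridised to arrays of 1 colour, per the labels' protocols. The processed spot intensity, background-subtracted within each array by Agilent Feature Extraction (10.7.3.1 per the file headers, 9.1 per the submitters' processing notes), was used, and an alternative started from the raw mean and background intensities that the file headers name. The authors' deposited table, log2 values for 41265 probes, was quantile normalized to within 0.00234 between sorted columns, and served another.

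Of 45018 spots per array 1639 controls and 79 to 195 outliers were left out. Spots were averaged to 41174 probes, named through RefSeq accession (27668), symbol (5589) or older symbol (471), and the probe of highest mean stood for a gene. The log2 intensities, less each array's 75th percentile, were fitted in limma 3.58.1 (R 4.3.3) over 12 arrays, 1 mean per group (8 residual and 1.95 prior degrees of freedom), with calls at a Benjamini-Hochberg adjusted p under 0.05, two-sided. The fit was tested on simulated data. Same-numbered samples' deviations correlated at -0.04, 0.00 and 0.04, so numbers did not pair samples. Where no probe was above background in the lower group, the fold is a bound. Array number limits the precision. No genome was used, and coordinates are those of the files (mm9) or of RefSeq promoters (GRCm38.p6).

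Genes were named with an official symbol: the 12 largest rises and falls among passing, non-overlapping genes above background on all 6 arrays, the 6 largest bounds each way, up to 4 passing members of smallest p per list (or the member of smallest p), and a set of key genes. Some genes under this rule are not reported here. List extremes, family members and other members named were chosen after their values were seen. Members and lists were chosen with earlier results of these data known. Alternatives changed background, scaling, probe choice, filter, block, spread model and single arrays. Figures used matplotlib 3.10.9 in Python 3.11.15.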

Additional observations from a re-analysis of the deposited data

Results flagged for a closer look

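The named genes given here had a myeloid cell minus progenitor difference that itself differed between wild type and Rheb1-/- (limma, difference of differences, adjusted p under 0.05, against 11.1% of all genes tested). The value in brackets is the wild-type log2 difference minus the Rheb1-/- one. Each genotype has 3 arrays per cell type, and the genotypes' myeloid cell arrays lay on different slides, so genotype and slide cannot be told apart there.

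Of 29 stem and progenitor genes 6 had such a difference (median of the list -0.12), and those named were Kit (-0.67), Cdk6 (-0.98), Hoxa7 (-1.31), Hoxa9 (-1.64) and Ly6a (0.59). Of 15 primary granule genes 9 had one (median -0.72), among them Elane (-1.02), Prtn3 (-1.35), Ctsg (-1.24), Prss57 (-1.06), Cst7 (-1.26), Nkg7 (-1.20) and Calr (-0.72). Of 50 DNA replication genes 31 had one (median -0.66) and of 60 mitosis genes 27 (median -0.60), and the values were Mcm2 (-0.69), Mcm3 (-0.73), Mcm4 (-0.72), Cks1b (-0.61), Cks2 (-0.58), Mybl2 (-0.70) and Mki67 (-0.72). Of 51 ribosome biogenesis genes 18 had one, and of 72 mitochondrial ribosomal protein genes 3. Growth and mitochondrial genes gave Myc (-1.52), Nop56 (-0.76), Nop58 (-1.02), Fbl (-0.54), Grwd1 (-0.50), Mrps28 (-0.71) and Cycs (-0.61). Metabolic and stress genes gave Phgdh (-0.91), Pdk1 (-0.84), Scd2 (-0.98) and Hsp90aa1 (-0.78), and Chac1 1.43.

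Of 34 phagocytic receptors and integrins 2 had such a difference and of 43 monocyte and macrophage genes 4, shares below that of all genes. Single genes with a positive value were Cd33 (1.49), Cd68 (0.71), Lrp1 (0.91), Padi4 (0.74), S100a11 (0.72), Ifngr2 (0.53) and Mafg (0.42). Of 22 B cell markers 7 had one, of 23 T and NK cell markers 6 and of 22 dendritic cell markers 2, and those named were Cd79a (1.82), Fcer2a (3.73), Spib (2.08), Cd3d (1.92), Zap70 (1.44), Zbtb46 (2.09) and Ccr9 (1.47). The value of Fcer2a is a fitted one, since it was above background on no wild-type progenitor array. Of the largest falls in wild type, Ppic (-1.91), Gpc3 (-1.86), Grb10 (-1.79), Adgra3 (-1.28), Tfr2 (-1.13), 4930519L02Rik (-1.11) and Krt8 (-0.95) were more negative there. Klk1b24 (8.44) was above background on all 3 wild-type myeloid cell arrays and on no wild-type progenitor array.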

How the results depend on the processing

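Over 20 alternatives, 3410 of 3437 values of named genes kept direction and side of limma's threshold, as did 155 of 173 genes under every one run. Of 640 list medians 562 moved by less than 1 SD, taken from the spread of the list's median among wild-type arrays. The replicate block, the 6 wild-type arrays alone, the intensity trend and the 2-fold minimum change the test and leave the list medians as they are. Agreement of medians there was fixed in advance, as was that of directions for genes with no missing value. A 2-fold minimum left 5471 calls in wild type (2869 higher, 2602 lower), 3365 in Rheb1-/- and 1 for the difference between genotypes. That difference had 3172 calls with median scaling and 775 without a filter. Leaving out single wild-type arrays gave 13082 to 13388 calls in wild type, 6564 to 6872 higher and 6488 to 6636 lower, and 1051 to 2110 for the difference. With the replicate block limma called 13635 genes, 6907 higher and 6728 lower, and the numbers do not pair samples. Median scaling split the calls 5549 to 8024, and the additive slide model, which pools the genotypes, 4738 to 6182.

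Stroma and endothelium turned to -0.15 with quantile normalization or the deposited table, -0.063 with median scaling, -0.25 with the mean of probes, -1.0 over genes on all 12 arrays and -0.088 with array weights. Other medians that turned were immediate early and heat shock genes with median scaling (-0.094), megakaryocyte markers over genes on all 12 arrays (0.077) and mitosis genes in the additive model (0.080). Single genes that turned were Top2a with the mean of probes (0.22) and in the additive model (0.18), and Mki67 (0.51) and Klk1b24 (-3.62) in the additive model. The cause was not tested. Dim probes near background limit the folds of low genes.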

Other observations

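The wild-type stem cell sample was a single array. It entered the additive slide model, which used all 14 arrays, and no other comparison. It read 6.54 for Cd34, 2.87 for Kit, 3.78 for Myc and 3.62 for Nop58, which lay nearer the wild-type progenitor means than the myeloid cell means. For the granule genes it read 8.25 for Mpo and 3.58 for Elane, below every wild-type array of both other cell types, and 6.45 for Ltf, above the 3 progenitor arrays and below the 3 myeloid cell arrays. For Mmp9 it read 1.68 and for Mki67 5.28, the latter below all 6. With 1 array these are values only.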
